A study of Mus musculus with 12 samples.

Results

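A list of 30 genes of cholesterol and fatty acid synthesis was followed in mouse hypothalamic neurospheres after a short glucocorticoid exposure. They were chosen by name from the pathway and comprise 18 enzymes that build cholesterol, 6 regulators of the sterol supply and 6 enzymes that build fatty acids. Of 40597 loci in the table, 30 carried these genes, and all 30 passed the minimum of 1 FPKM on average that a locus needed to be tested. No member passed the test for an effect of dexamethasone in either sex or averaged over the sexes, and every averaged effect had a 95% interval within 1 log2 unit of no change. The nearest to a call were Msmo1 and Fdps, which were higher with dexamethasone in every library of both sexes. Thrsp, Lpin1 and Acsl3, lipid genes outside the list, rose in the same cultures.

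Neurospheres are floating spheres of neural stem and progenitor cells. These were grown from the hypothalamus of C57Bl/6 mice at embryonic day 14.5 and were at passage 3, and no genetic change is named in the labels. Dexamethasone, a synthetic agonist of the glucocorticoid receptor, was given at 100 nM for 4 hours, and controls received the same volume of its ethanol solvent (vehicle). The 12 libraries form 4 groups of 3: female cultures with dexamethasone, female cultures with vehicle, male cultures with dexamethasone and male cultures with vehicle. The labels call the 3 libraries biological replicates without saying what was replicated, and a p-value here reflects how far these 12 cultures scattered, which may be technical.

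Cholesterol is assembled from acetyl-CoA through mevalonate, isoprenoids, squalene and lanosterol, and fatty acids are built from the same acetyl-CoA. Most of the enzymes are under the transcription factors SREBP-2 (gene Srebf2) and SREBP-1 (gene Srebf1), which the escort protein SCAP carries out of the endoplasmic reticulum when sterols are scarce and which INSIG proteins hold back when sterols are plentiful. Brain cells depend on this pathway because plasma cholesterol scarcely crosses the blood-brain barrier, and in liver and fat tissue glucocorticoids are known to favour fatty acid synthesis.

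SREBPs bind sterol regulatory elements, and NF-Y, a frequent partner, binds the CCAAT box, so the promoters of the list were searched for both. RefSeq promoter windows (GRCm38.p6, 250 bases before to 50 bases after the start) were at hand for 24 of the 30 genes. Both strands were read and overlaps were allowed. The letters TCACNCCA, the core of the sterol regulatory element, occurred for Hmgcs1, Msmo1 and Srebf2, which is 12.5% of the 24 genes, against 4.97% of 27025 genes with a window. This spelling was chosen after seeing the data, so these shares only describe the windows. The letters CCAAT occurred for 20 of the 24 (83.3%), against 41.1% of all genes, and the GC box letters GGGCGG likewise for 20 of the 24 (83.3%), against 38.2% of all genes. Among 26 other genes of lipid supply with a window, taken up below, the shares lay between these. They were 57.7% for CCAAT, 65.4% for the GC box and 7.69% for the sterol core. The full glucocorticoid response element, AGAACA and TGTTCT parted by NNN, occurred for 0 of the 24 and for 3 genes of all (0.0111%). Its single arm AGAACA occurred for 7 of the 24 (29.2%), against 21.3% of all genes. These matches describe letters in a window, and no binding was measured. The stretches below show the 3 genes with the sterol core, which include the member with the smallest p, and the proximal promoter of Fasn, the member with the largest averaged difference. Capitals mark TCACNCCA and the CCAAT box, which reads ATTGG on the opposite strand.
Hmgcs1, chr13:119690174-119690261, plus strand: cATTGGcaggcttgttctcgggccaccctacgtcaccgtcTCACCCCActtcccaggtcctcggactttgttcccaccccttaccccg
Msmo1, chr8:64733708-64733795, minus strand: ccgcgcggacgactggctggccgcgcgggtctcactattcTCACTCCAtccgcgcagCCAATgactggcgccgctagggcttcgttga
Srebf2, chr15:82147067-82147154, plus strand: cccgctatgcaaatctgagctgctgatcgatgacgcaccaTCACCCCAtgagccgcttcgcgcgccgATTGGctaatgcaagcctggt
Fasn, chr11:120824548-120824647, minus strand: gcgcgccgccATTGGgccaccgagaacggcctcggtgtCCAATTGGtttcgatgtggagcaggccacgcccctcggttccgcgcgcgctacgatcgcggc
In Msmo1 and Srebf2 a CCAAT box lies close behind the sterol core, and in Hmgcs1 one lies before it. The stretch of Fasn holds CCAAT letters on both strands that overlap in one place and no sterol core of this spelling.

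Treatment and sex labels were checked first. Known glucocorticoid targets rose with dexamethasone averaged over the sexes, with log2 fold changes of 2.42 for Fkbp5, 2.43 for Tsc22d3, 2.00 for Klf9, 3.05 for Zbtb16 and 1.91 for Per1 (limma, adjusted p between 4.44e-07 and 0.000478). Loci above 1 FPKM numbered 13755 to 14826 a library, and FPKM carry no counts, so the depth is unknown. Unnamed loci held 53.1% of all FPKM in male dexamethasone library 2 and 75% in male vehicle library 3, against at most 38.6% elsewhere. Xist, the RNA of the inactive X chromosome, was listed at 14.1 FPKM in male dexamethasone library 2 and 3.04 FPKM in male vehicle library 2, against at least 136 FPKM in every female library. The Y-linked gene Ddx3y had 16.6 to 22.6 FPKM in the male libraries, these included, and at most 0.0397 FPKM in the female libraries. All 10 neural stem markers averaged at least 1 FPKM, led by Fabp7, while of 8 hypothalamic markers only Six3 did and Nkx2-1, Rax and Otp did not. The 8 hypothalamic markers summed to 0.196 to 51.2 FPKM in dexamethasone libraries and 0.105 to 49.3 FPKM in vehicle libraries, so that Six3 was near 0 in some libraries of both treatments. Of 8 oligodendrocyte-lineage markers 7 averaged at least 1 FPKM, led by Olig1 at 211 FPKM. Of 10 neuronal markers 4 did, led by Map2 at 274 FPKM. Among 6 endothelial markers only Flt1 did (2.08 FPKM), and among 6 mural and fibroblast markers only Acta2 did (27.9 FPKM). The 6 astrocytic markers summed to 60.3 to 252 FPKM in dexamethasone libraries and 59.7 to 200 FPKM in vehicle libraries, and no microglial marker of 6 reached 1 FPKM. The part of these differences between libraries in the results was not tested beyond the values given without those libraries. In bulk RNA, fewer cells of a type and less RNA per cell cannot be told apart.

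The members were strongly expressed, and their levels spanned a wide range. FPKM are scaled by transcript length, so levels can be set beside each other, with the limit that some loci were joined or overlap a neighbour. On the opposite strand Cyp51 overlaps Akap9, Mvd overlaps Gm20388 and Acaca overlaps Gm11437. Hmgcs1, which makes HMG-CoA and opens the mevalonate route, had the highest level, with a mean of 612 FPKM over the 12 libraries and a range of 511 to 706 FPKM. Scd2, a desaturase that puts a double bond into saturated fatty acids, came next at a mean of 562 FPKM, and its range of 481 to 668 FPKM overlapped that of Hmgcs1. The demethylating enzymes of lanosterol followed, Msmo1 at a mean of 263 FPKM (211 to 320) and Cyp51 at 196 FPKM (167 to 211), with ranges that touched. Fdps had a mean of 154 FPKM, Acly 137 FPKM, Lss 133 FPKM and Insig1 104 FPKM, and the ranges of neighbours in this order overlapped. At the low end stood Elovl6 with 28.8 FPKM, Stard4 with 27.6 FPKM, Ebp with 26.9 FPKM and Hsd17b7 with 15.6 FPKM, and among these the range of Hsd17b7 (9.84 to 20.4 FPKM) lay below the ranges of the other three genes.

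The effect of dexamethasone was first asked as the mean of its effects in female and male cultures. By limma with Benjamini-Hochberg adjustment over all 14931 tested loci, 0 of 30 members passed an adjusted p under 0.05, where 1.53% of all tested loci passed. At an unadjusted p under 0.05, 4 members were higher (Msmo1, Fdps, Acat2 and Pmvk) and 0 were lower, where 6.86% of all loci were higher and 6.74% were lower. That split was 2 higher and 3 lower without female dexamethasone library 3, and 1 higher and 1 lower after quantile normalization. It was 6 higher and 0 lower without female dexamethasone library 1, and the same without the filter on the mean level. The averaged log2 fold change was above 0 for 21 of 30 members, against 48.5% of all loci, and for 16 of the 18 cholesterol enzymes. The count above 0 also depended on the normalization and on single libraries. It was 13 of 30 (11 of 18) after quantile normalization and 14 of 30 (13 of 18) without female dexamethasone library 3. Without female vehicle library 1 it was 17 of 30 (14 of 18), and without male dexamethasone library 3 it was 18 of 30 (15 of 18). After upper quartile scaling it stayed at 21 of 30 (16 of 18), and without female dexamethasone library 1 it was 22 of 30 (16 of 18). It was 20 of 30 without the 2 libraries with most FPKM at unnamed loci, and 20 of 30 without the 2 male libraries with Xist above 1 FPKM. The median averaged log2 fold change was 0.09 for the cholesterol enzymes, -0.01 for the fatty acid enzymes and -0.06 for the regulators, against -0.01 for all loci. For the cholesterol enzymes it was 0.043 without female dexamethasone library 3, 0.048 after quantile normalization and 0.11 without female dexamethasone library 1. A change of 0.5 log2 units lay outside the 95% interval for 27 of the 30 members (90%), against 58.7% of all loci, and Fasn, Dhcr7 and Srebf2 were the exceptions.

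**Figure D1:**
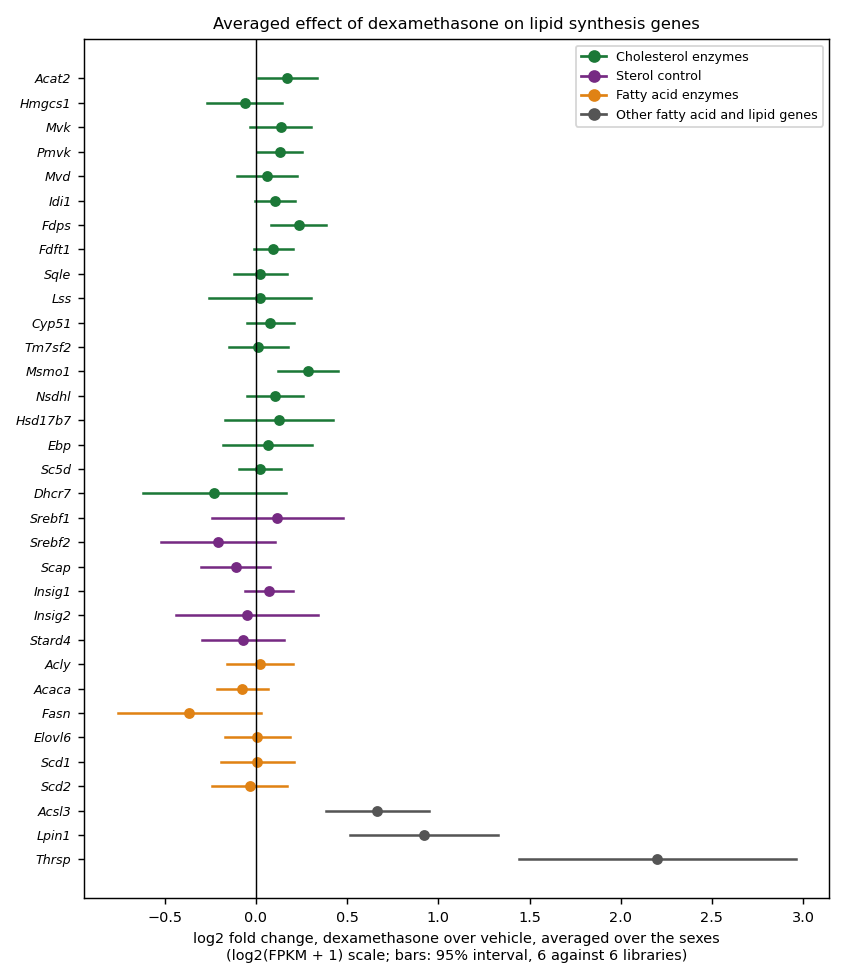
Averaged effect of dexamethasone on the 30 members and on Acsl3, Lpin1 and Thrsp, as log2 fold change of dexamethasone over vehicle (horizontal axis, log2(FPKM + 1) scale) with 95% intervals from 6 against 6 libraries. The members lie between -0.36 (Fasn) and 0.29 (Msmo1), and the 3 genes outside the list lie at 0.67, 0.92 and 2.2.

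The early enzymes run from acetyl-CoA to the isoprenoid units. In the values that follow, libraries 1, 2 and 3 of a group are given in that order. Acat2 (chr17:12942890-12960747), the cytosolic thiolase that joins acetyl-CoA units, had 55.1, 67.2 and 69.9 FPKM in female cultures with dexamethasone, against 48.5, 58.8 and 56.2 FPKM with vehicle, and 61.7, 56.8 and 58.8 FPKM in male cultures with dexamethasone, against 54.4, 56.7 and 52.1 FPKM with vehicle. The male groups did not overlap, by a margin of less than 1 FPKM, and the female groups did. The averaged log2 fold change was 0.17 with a 95% interval of 0.01 to 0.34 (limma, adjusted p = 0.34). The transcripts of Acat2 and its copy Acat3 share 1477 aligned bases at 97.7% identity, so reads may have been split between them.

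Hmgcs1 averaged 630 ± 62.3 FPKM in female dexamethasone libraries, 655 ± 70.8 FPKM in female vehicle libraries, 569 ± 74.9 FPKM in male dexamethasone libraries and 596 ± 54.3 FPKM in male vehicle libraries (SD, n = 3 each). Its averaged log2 fold change of -0.06 had an interval of -0.27 to 0.15.

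Mevalonate kinase, Mvk (chr5:114444269-114460591), had 52.0, 54.4 and 58.1 FPKM in female cultures with dexamethasone, against 38.4, 48.2 and 44.2 FPKM with vehicle, and 49.99, 47.3 and 42.4 FPKM in male cultures with dexamethasone, against 53.6, 46.8 and 44.8 FPKM with vehicle. The female groups did not overlap, while the male groups were mixed. Its log2 fold change was 0.33 in females (interval 0.09 to 0.56, limma adjusted p = 0.392) and -0.05 in males (interval -0.29 to 0.18). The female effect minus the male effect was 0.38, with an interval of 0.05 to 0.72, and did not pass after adjustment over all loci (limma, adjusted p = 1.00). Phosphomevalonate kinase, Pmvk (chr3:89459118-89469013), had 61.1, 64.8 and 65.8 FPKM in female cultures with dexamethasone, against 52.4, 57.6 and 58.1 FPKM with vehicle, and 59.5, 55.0 and 59.0 FPKM in male cultures with dexamethasone, against 59.1, 50.4 and 55.6 FPKM with vehicle. Here too the female groups stood apart and the male groups overlapped. The averaged log2 fold change of Pmvk was 0.13, with an interval of 0.01 to 0.25 (limma, adjusted p = 0.34).

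Mvd, which decarboxylates the phosphorylated mevalonate, averaged 49.3 ± 4.29 FPKM in female dexamethasone libraries and 46.2 ± 2.19 FPKM in female vehicle libraries, and 45.4 ± 6.31 FPKM in male dexamethasone libraries and 44.1 ± 1.41 FPKM in male vehicle libraries. The isomerase Idi1 (chr13:8885501-8892494) had 86.7, 94.2 and 97.2 FPKM in female cultures with dexamethasone, against 82.9, 81.0 and 89.0 FPKM with vehicle, and 94.9, 94.96 and 101 FPKM in male cultures with dexamethasone, against 93.2, 93.6 and 89.0 FPKM with vehicle. Every male dexamethasone library was above every male vehicle library, the female groups overlapped, and the averaged log2 fold change was 0.10 (limma, adjusted p = 0.381). A processed pseudogene, Gm13502, matches 684 bases of the Idi1 transcript at 100% identity.

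Farnesyl diphosphate synthase, Fdps (chr3:89093592-89101967), makes the isoprenoid from which sterols, dolichol and protein prenyl groups are drawn. It had 146, 180 and 174 FPKM in female cultures with dexamethasone, against 131, 118 and 144 FPKM with vehicle, and 161, 172 and 167 FPKM in male cultures with dexamethasone, against 150, 151 and 156 FPKM with vehicle. Neither pair of groups overlapped, and the female vehicle libraries were the lowest of all. The log2 fold change was 0.34 in females, 0.13 in males and 0.23 averaged, with an averaged interval of 0.08 to 0.39 (limma, adjusted p = 0.17). Fdps has 7 near copies in the annotation, among them Gm43738, which overlaps it on the same strand, and the rule for multiply mapped reads is unknown here.

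The next enzymes commit carbon to sterols. Fdft1 (chr14:63122462-63177793), squalene synthase, had 59.1, 60.6 and 61.0 FPKM in female cultures with dexamethasone, against 57.9, 55.4 and 53.1 FPKM with vehicle, and 63.9, 62.5 and 57.8 FPKM in male cultures with dexamethasone, against 61.5, 58.0 and 55.4 FPKM with vehicle. The female groups did not overlap and the male groups did, and the averaged log2 fold change was 0.10 (limma, adjusted p = 0.411). Fdft1 was the steadiest member, with a coefficient of variation within groups of 4.14%. The Fdft1 locus spans 55.3 kb against 34.4 kb for the gene and overlaps Ctsb on the opposite strand. This value may therefore not be that of Fdft1 alone. A processed pseudogene, Gm6781, matches 1249 bases of the Fdft1 transcript at 97.4% identity. Sqle, the squalene epoxidase, averaged 87.5 ± 6.89 FPKM in female dexamethasone libraries and 84.1 ± 7.64 FPKM in female vehicle libraries, and 97.3 ± 7.83 FPKM in male dexamethasone libraries and 97.7 ± 3.16 FPKM in male vehicle libraries. Lss, which closes squalene epoxide into lanosterol, averaged 138 ± 27.9 FPKM in female dexamethasone libraries and 131 ± 29.0 FPKM in female vehicle libraries, and 130 ± 7.97 FPKM in male dexamethasone libraries and 134 ± 6.42 FPKM in male vehicle libraries. Both had an averaged log2 fold change of 0.02, and Lss varied more between female than between male libraries.

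The remaining sterol enzymes trim lanosterol to cholesterol. Cyp51 (chr5:4081145-4104746), lanosterol demethylase, had 191, 195 and 211 FPKM in female cultures with dexamethasone, against 192, 167 and 188 FPKM with vehicle, and 196, 211 and 204 FPKM in male cultures with dexamethasone, against 186, 209 and 202 FPKM with vehicle. Both pairs of groups overlapped, and the averaged log2 fold change was 0.08 with an interval of -0.05 to 0.21 (limma, adjusted p = 0.581). Msmo1 (chr8:64718115-64733792, under its older name Sc4mol in the table) is the methylsterol monooxygenase that acts after Cyp51. It had 292, 306 and 262 FPKM in female cultures with dexamethasone, against 255, 211 and 211 FPKM with vehicle, and 278, 320 and 279 FPKM in male cultures with dexamethasone, against 254, 259 and 235 FPKM with vehicle.

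All 6 dexamethasone libraries exceeded all 6 vehicle libraries for Msmo1. The log2 fold change was 0.35 in females, 0.23 in males and 0.29 averaged (SE 0.07, interval 0.12 to 0.45), the smallest p of the list, and it was not called (limma, adjusted p = 0.112). Over the alternatives its adjusted p ran from 0.0530 to 0.418, and its log2 fold change was 0.15 after quantile normalization (limma, adjusted p = 0.353). Msmo1 and Fdps were the 2 members of 30 whose groups stood apart, dexamethasone higher, in both sexes, where 2.08% of all tested loci did so. No member stood apart in the lower direction in both sexes, where 1.39% of loci did.

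Nsdhl (chrX:72918557-72958515), the X-linked sterol dehydrogenase of the same demethylation step, had 49.9, 48.6 and 59.6 FPKM in female cultures with dexamethasone, against 43.1, 47.4 and 50.5 FPKM with vehicle, and 49.0, 49.2 and 52.5 FPKM in male cultures with dexamethasone, against 44.7, 51.2 and 49.9 FPKM with vehicle. The groups overlapped in both sexes (averaged log2 fold change 0.10, limma adjusted p = 0.532). The other late enzymes had averaged log2 fold changes of 0.01 for the reductase Tm7sf2, 0.13 for the ketoreductase Hsd17b7, 0.06 for the isomerase Ebp and 0.02 for the desaturase Sc5d, all with intervals that held 0. Leaving out 1 library at a time, the value of Hsd17b7 ran from 0.028 to 0.18 and that of Ebp from 0.0016 to 0.17, both lowest without female dexamethasone library 3. The value of Tm7sf2 belongs to a locus joined with Vps51 and Zfpl1. Dhcr7, the last reductase on one branch of the route, averaged 61.5 ± 22.3 FPKM in female dexamethasone libraries and 68.2 ± 11.7 FPKM in female vehicle libraries, and 54.7 ± 7.43 FPKM in male dexamethasone libraries and 66.5 ± 13.9 FPKM in male vehicle libraries. Its averaged log2 fold change of -0.23 had the wide interval of -0.62 to 0.17.

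**Figure D2:**
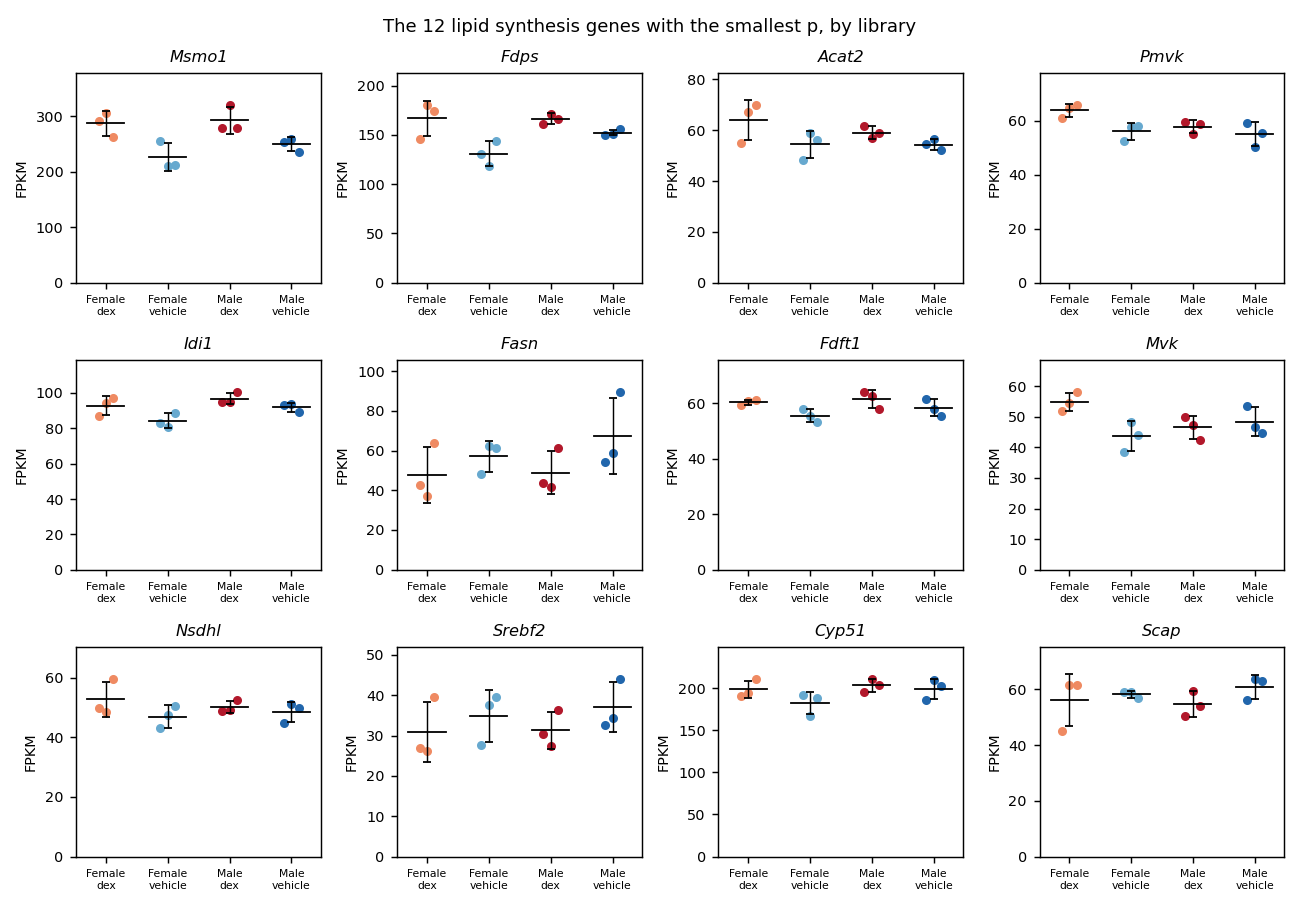
FPKM (vertical axes, from 0) in each library for the 12 members with the smallest p in the averaged effect, in female and male cultures with dexamethasone (dex) or vehicle; points are libraries, long lines are means and bars are SD (n = 3). Only the panels of Msmo1 and Fdps show every dexamethasone library above every vehicle library in both sexes, and Fasn shows the widest scatter.

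The regulators of the sterol supply had no member near a call. Srebf2 (chr15:82147266-82205378), which encodes the main activator of the cholesterol enzymes, had 26.9, 26.2 and 39.5 FPKM in female cultures with dexamethasone, against 27.6, 37.4 and 39.6 FPKM with vehicle, and 30.3, 27.3 and 36.3 FPKM in male cultures with dexamethasone, against 32.7, 34.4 and 44.0 FPKM with vehicle. In each of the 4 groups library 3 was the highest, and both pairs of groups overlapped. The averaged log2 fold change was -0.21, with an interval of -0.52 to 0.10 (limma, adjusted p = 0.546). Srebf1 (chr11:60105013-60222581), whose product favours fatty acid genes, had 50.3, 47.4 and 85.6 FPKM in female cultures with dexamethasone, against 41.6, 48.7 and 58.1 FPKM with vehicle, and 51.2, 74.7 and 55.3 FPKM in male cultures with dexamethasone, against 59.4, 66.6 and 56.2 FPKM with vehicle. One library in each dexamethasone group stood high and the groups overlapped (averaged log2 fold change 0.12, interval -0.24 to 0.48, limma adjusted p = 0.778). The Srebf1 locus in the table spans 117.6 kb, while the gene spans 23.5 kb, and it runs over Rai1 on the opposite strand, so the value may not be that of Srebf1 alone.

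Scap (chr9:110333288-110408210), the escort of the SREBPs, had 45.2, 61.5 and 61.4 FPKM in female cultures with dexamethasone, against 58.9, 58.8 and 56.7 FPKM with vehicle, and 50.3, 59.5 and 53.9 FPKM in male cultures with dexamethasone, against 56.0, 63.7 and 63.0 FPKM with vehicle. The groups overlapped in both sexes, and the averaged log2 fold change was -0.11 (limma, adjusted p = 0.598). The Scap locus in the table spans 74.9 kb against 51.7 kb for the gene and runs over Ptpn23 on the opposite strand, so this value too may not be that of Scap alone. Insig1 (chr5:28071363-28078662), a retention protein that is itself an SREBP target, had 96.5, 106 and 102 FPKM in female cultures with dexamethasone, against 102, 86.0 and 94.8 FPKM with vehicle, and 102, 116 and 117 FPKM in male cultures with dexamethasone, against 107, 109 and 111 FPKM with vehicle. Its averaged log2 fold change of 0.07 had an interval of -0.06 to 0.20 (limma, adjusted p = 0.634), and the groups overlapped in both sexes.

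Insig2 (chr1:121304261-121332689), the second retention protein, had 35.1, 41.2 and 39.9 FPKM in female cultures with dexamethasone, against 53.6, 38.8 and 33.2 FPKM with vehicle, and 45.8, 24.8 and 39.4 FPKM in male cultures with dexamethasone, against 33.7, 30.1 and 46.1 FPKM with vehicle. The highest library was a female vehicle one and the lowest a male dexamethasone one, with every pair of groups overlapping (averaged log2 fold change -0.05, interval -0.44 to 0.34, limma adjusted p = 0.925). Stard4, a sterol carrier inside the cell, averaged 26.5 ± 4.76 FPKM in female dexamethasone libraries and 26.3 ± 1.96 FPKM in female vehicle libraries, and 27.4 ± 3.75 FPKM in male dexamethasone libraries and 30.2 ± 3.41 FPKM in male vehicle libraries.

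Among the fatty acid enzymes, the largest difference was that of Fasn (chr11:120805940-120824178), fatty acid synthase. It had 42.5, 37.2 and 63.7 FPKM in female cultures with dexamethasone, against 48.3, 62.3 and 61.1 FPKM with vehicle, and 43.7, 41.5 and 61.3 FPKM in male cultures with dexamethasone, against 54.5, 58.6 and 89.5 FPKM with vehicle. Library 3 was the highest of both dexamethasone groups and of the male vehicle group. Dexamethasone library 3 lay above every vehicle library in females and among the vehicle libraries in males, so the groups overlapped in both sexes. The averaged log2 fold change was -0.36 (SE 0.17, interval -0.76 to 0.03), below the vehicle level but not called (limma, adjusted p = 0.392). It was -0.48 without female dexamethasone library 3, -0.26 without male vehicle library 3, and -0.20 without both libraries in which unnamed loci took most of the FPKM. Over the alternatives the adjusted p of the averaged effect of Fasn ran from 0.113 to 0.774 (limma).

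Acly, which supplies cytosolic acetyl-CoA, averaged 139 ± 18 FPKM in female dexamethasone libraries and 133 ± 10.4 FPKM in female vehicle libraries, and 138 ± 13.8 FPKM in male dexamethasone libraries and 139 ± 10.9 FPKM in male vehicle libraries. Acaca, the carboxylase that makes malonyl-CoA, averaged 33.1 ± 2.24 FPKM in female dexamethasone libraries and 35.6 ± 3.68 FPKM in female vehicle libraries, and 38.9 ± 2.27 FPKM in male dexamethasone libraries and 40.3 ± 0.971 FPKM in male vehicle libraries. Elovl6, an elongase, had an averaged log2 fold change of 0.01 with an interval of -0.17 to 0.19. Acly and Elovl6 differed between treatments by less than their spread. Acaca was lower with dexamethasone in both sexes, by more than the smaller but less than the larger SD of the groups compared. Its groups overlapped in both sexes, and its averaged log2 fold change ran from -0.11 to -0.040 over the alternatives without a call. A processed pseudogene, Gm5182, matches 6118 bases of the Acaca transcript at 99.2% identity.

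The desaturases were level. Scd1 (chr19:44394451-44407709) had 66.7, 75.3 and 88.0 FPKM in female cultures with dexamethasone, against 61.9, 81.0 and 82.6 FPKM with vehicle, and 73.9, 68.0 and 72.4 FPKM in male cultures with dexamethasone, against 71.3, 69.8 and 75.8 FPKM with vehicle. Scd2 (chr19:44261248-44309320), the main isoform of brain, had 509, 557 and 643 FPKM in female cultures with dexamethasone, against 481, 668 and 604 FPKM with vehicle, and 565, 526 and 531 FPKM in male cultures with dexamethasone, against 535, 578 and 554 FPKM with vehicle. Scd2 was above Scd1 in every library, and for both genes the treatment groups overlapped. The averaged log2 fold changes were 0.01 for Scd1 (interval -0.19 to 0.21) and -0.03 for Scd2 (interval -0.24 to 0.17). Scd1 and Scd2 transcripts share 1195 aligned bases at 88.0% identity, and the Scd2 row is joined with Mir5114 and spans 48.1 kb against 13.2 kb for the gene.

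The same contrasts were asked in each sex. In female cultures 0 of 30 members were called by limma, where 0.482% of loci were, and 4 were higher at an unadjusted p under 0.05 (Mvk, Pmvk, Fdps and Msmo1), against 4.59% of loci. Male cultures also gave 0 of 30, where 0.315% of loci were called, and 0 members passed an unadjusted p under 0.05, against 6.38% of loci. The dexamethasone and vehicle groups stood apart, dexamethasone higher, for 5 members in females (6.95% of loci) and 4 in males (5.73% of loci), all of them cholesterol enzymes. No member stood apart in the lower direction in females (5.82% of loci) or in males (6.15% of loci).

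The difference between the sexes in the response was tested as the female effect minus the male effect. By limma 0 of 30 members passed, where 0.0335% of loci did, and 1 member, Mvk, passed an unadjusted p under 0.05, against 1.47% of loci. The estimated difference was above 0 for 28 of 30 members and 18 of 18 cholesterol enzymes, against 52.5% of loci, with a median of 0.07 over the members. Female dexamethasone library 3 bore on this count, since without it the difference was above 0 for 16 of 30 members and 12 of 18 cholesterol enzymes, against 50.8% of loci, and the median was 0.00213. Female vehicle library 1 bore on it too, with 21 of 30 members and 14 of 18 cholesterol enzymes above 0 without that library. After quantile normalization the count was 26 of 30 (17 of 18). The count was 21 of 30 without the 2 libraries with most FPKM at unnamed loci and 25 of 30 without the 2 male libraries with Xist above 1 FPKM. Female dexamethasone library 3 was the highest of its group for 25 of 30 members and for 36.1% of all loci, while female dexamethasone library 1 was the highest for 0 of 30. Without female dexamethasone library 1 the difference was above 0 for 29 of 30 members and 18 of 18 cholesterol enzymes. The median female log2 fold change of the members was 0.07 with all libraries. It was -0.01 without female dexamethasone library 3 and 0.12 without female dexamethasone library 1, so it moved either way with the library left out.

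**Figure D3:**
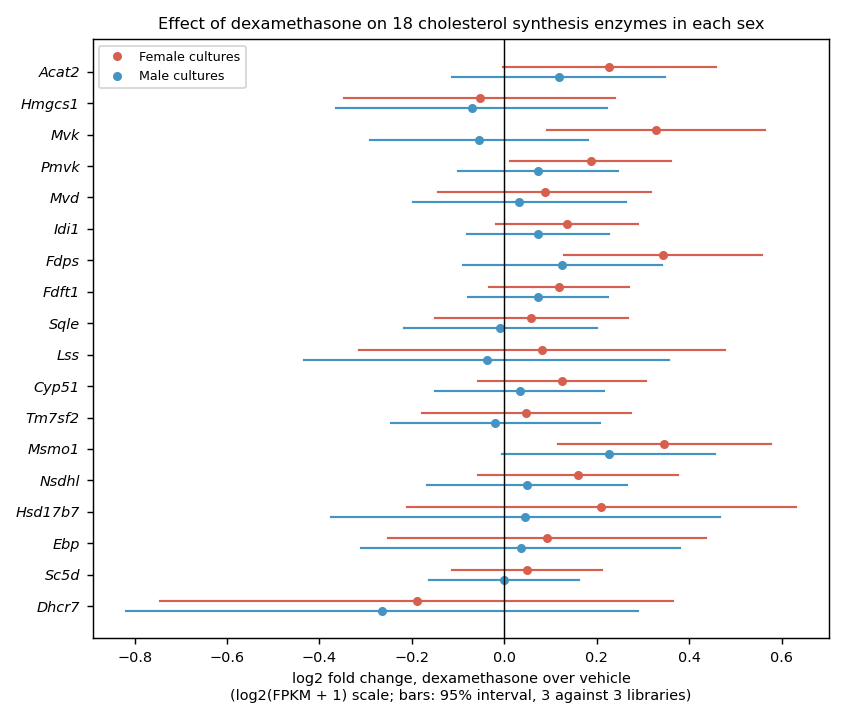
Log2 fold change of dexamethasone over vehicle for the 18 cholesterol synthesis enzymes in female and male cultures (log2(FPKM + 1) scale), with 95% intervals from 3 against 3 libraries. The female estimate lies to the right of the male one for all 18 genes, with intervals that overlap widely. Without female dexamethasone library 3 this held for 12 of the 18, and without female vehicle library 1 for 14 of the 18.

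Under vehicle, female minus male, 0 of 30 members were called by limma, where 0.0737% of loci were. At an unadjusted p under 0.05, 0 members were higher and 4 were lower in female cultures, where 3.03% of loci were higher and 1.84% lower. The count of 4 lower members was 6 after upper quartile scaling. It was 0 without male vehicle library 2, 0 without male vehicle library 3 and 1 without female vehicle library 2. It was also 0 without the 2 libraries with most FPKM at unnamed loci and without the 2 male libraries with Xist above 1 FPKM. Hsd17b7 averaged 12.4 ± 2.35 FPKM in female vehicle libraries and 17.4 ± 2.05 FPKM in male vehicle libraries, a log2 difference of -0.47 with an interval of -0.89 to -0.05 (limma, adjusted p = 0.892). The other three were Fdps at -0.22, Sqle at -0.22 and Insig1 at -0.21, and these 4 genes had no overlap between the female and male vehicle libraries. Idi1 and Acaca also stood apart, which makes 6 of 30 members lower in female cultures, where 3.54% of loci were.

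Sums over the genes of each role were close between treatments, but such sums weigh the strongly expressed genes most. Hmgcs1 bore most on the cholesterol sum and Scd2 on the fatty acid sum. Summed over the 18 cholesterol enzymes, female cultures held 2173 ± 156 FPKM with dexamethasone and 2022 ± 98.8 FPKM with vehicle, and male cultures held 2094 ± 61.7 FPKM with dexamethasone and 2058 ± 58.3 FPKM with vehicle (SD, n = 3). The 6 fatty acid enzymes summed to 893 ± 112 FPKM in female cultures with dexamethasone and 912 ± 125 FPKM with vehicle, and to 868 ± 33.5 FPKM in male cultures with dexamethasone and 905 ± 41.0 FPKM with vehicle. The 6 regulators summed to 315 ± 42.2 FPKM in female cultures with dexamethasone and 305 ± 9.41 FPKM with vehicle, and to 322 ± 16.4 FPKM in male cultures with dexamethasone and 334 ± 19.3 FPKM with vehicle. In each of these sums the difference was of the size of the SDs or smaller. Within groups the members had a median coefficient of variation of 8.63%. It was 10.9% for 5455 tested loci whose mean lay between those of the lowest and the highest member. Those loci were expressed in every library and were not matched to the members in level within that range. The least steady were Fasn at 23.4%, Dhcr7 at 22.0%, Insig2 at 21.4% and Srebf1 at 20.3%.

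**Figure D4:**
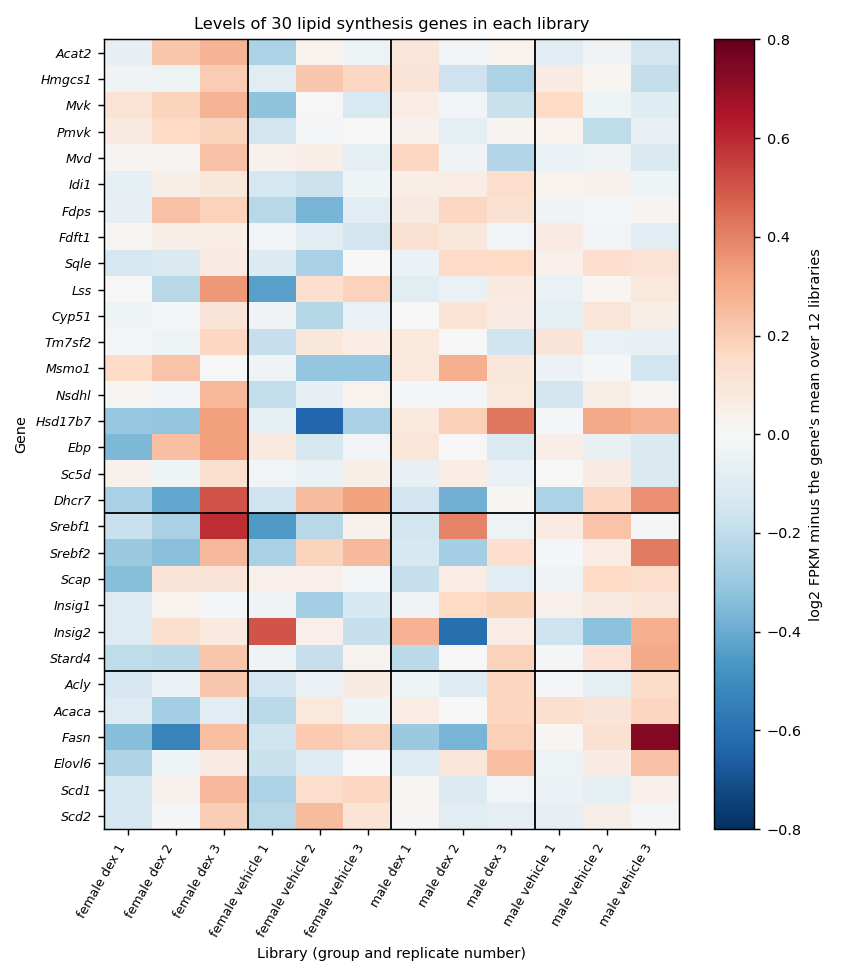
Level of each member in each library, as log2 FPKM minus the mean of the gene over the 12 libraries (colour, red above and blue below), with libraries in columns by group and replicate number and genes in rows in the order cholesterol enzymes, regulators and fatty acid enzymes. The column of female dexamethasone library 3 is red for most genes, the highest of its group for 25 of 30, and the columns do not divide by treatment.

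Other genes of lipid supply were read for comparison. They were chosen with earlier results of these data known, so the counts that follow only describe this list. Of 32 such genes 28 were tested, and 3 rose with dexamethasone in the averaged effect, all among 13 further genes of fatty acid and glyceride synthesis, while 0 of 6 further genes of sterol synthesis and its control and 0 of 9 genes of sterol uptake and export were called (1.15% of all loci were called higher). Abcg1, Mylip, Acacb and Pnpla3 averaged under 1 FPKM and were not tested.

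Thrsp (chr7:97412938-97417730), a nuclear protein known in liver for promoting fatty acid synthesis, had 47.9, 29.8 and 13.5 FPKM in female cultures with dexamethasone, against 6.41, 6.59 and 2.62 FPKM with vehicle, and 24.1, 8.87 and 12.0 FPKM in male cultures with dexamethasone, against 2.85, 1.95 and 2.23 FPKM with vehicle. The groups did not overlap in either sex. It rose by 2.2 on the log2 scale (SE 0.34, interval 1.44 to 2.96, limma adjusted p = 0.0111), in cultures whose Fasn, Acly and Acaca were not called. The adjusted p was 0.0504 without the 2 male libraries with Xist above 1 FPKM.

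Lpin1 (chr12:16534491-16612581), a phosphatidate phosphatase of glyceride synthesis and a coregulator, had 35.3, 50.3 and 40.3 FPKM in female cultures with dexamethasone, against 16.7, 27.8 and 19.5 FPKM with vehicle, and 56.8, 29.5 and 37.0 FPKM in male cultures with dexamethasone, against 23.5, 17.4 and 22.6 FPKM with vehicle. Acsl3 (chr1:78657825-78706987, a locus joined with Utp14b), which activates long fatty acids as acyl-CoA, had 265, 209 and 254 FPKM in female cultures with dexamethasone, against 165, 118 and 165 FPKM with vehicle, and 307, 251 and 198 FPKM in male cultures with dexamethasone, against 169, 156 and 157 FPKM with vehicle. For both, every dexamethasone library was above every vehicle library of its sex. Lpin1 rose by 0.92 on the log2 scale (SE 0.18, limma adjusted p = 0.0379) and Acsl3 by 0.67 (SE 0.13, limma adjusted p = 0.0324). Both calls were near the threshold. Leaving out 1 library at a time, the adjusted p of Lpin1 ran from 0.0295 to 0.101 and was under 0.05 only without male dexamethasone library 2 or female vehicle library 2. That of Acsl3 ran from 0.0168 to 0.0936 and was under 0.05 only without male dexamethasone library 3, female dexamethasone library 2 or female vehicle library 1. None of the 3 genes was called in 1 sex alone.

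**Figure D5:**
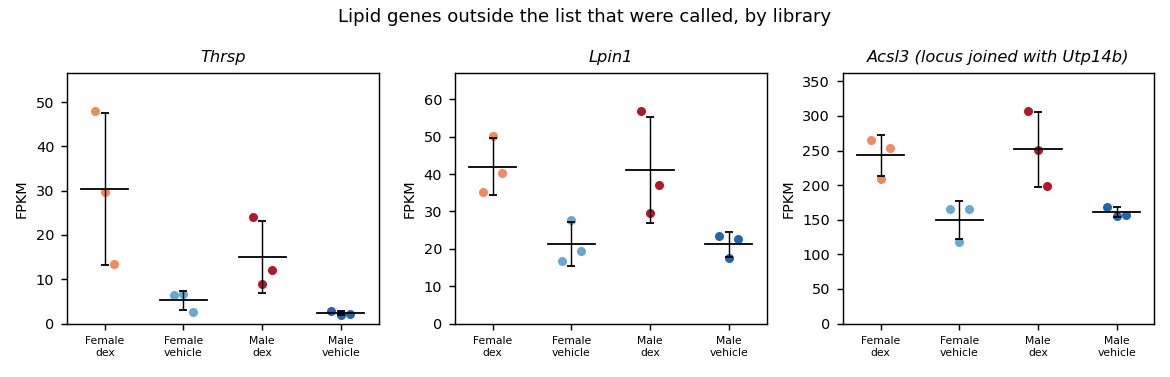
FPKM (vertical axes, from 0) of Thrsp, Lpin1 and the locus of Acsl3 in each library, in female and male cultures with dexamethasone (dex) or vehicle; points are libraries, long lines are means and bars are SD (n = 3). In all 3 panels the dexamethasone libraries lie above the vehicle libraries of the same sex, and those of Thrsp spread from 8.87 to 47.9 FPKM.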

How the data were processed

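Total RNA of 12 cultures was sequenced, each library on 2 lanes after stranded preparation, per the labels. The authors deposited 1 table of FPKM, fragments scaled by transcript length and library size, with 1 column a library. Per the submitters' processing notes, TopHat2 2.0.9, Cufflinks 2.2.1 and Cuffdiff 2.2.1 were used on GRCm38. Annotation release, strand setting and handling of multiply mapped reads were not given in the sources. Without the strand setting, overlapping genes on opposite strands are uncertain. Of 40597 loci, 930 joined several genes. Of the members, 29 were matched by gene name and 1 by Ensembl identifier, and 3 lie in joined loci (Tm7sf2, Srebf1 and Scd2). Coordinates are those of the deposited table on GRCm38, counted from 1.

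The test was limma 3.58.1 under R 4.3.3, run on log2(FPKM + 1) (1 mean per group over 12 libraries, contrasts, eBayes with a trend, two-sided). The 14931 loci averaging 1 FPKM or more were kept, and p-values were adjusted over all of them by Benjamini-Hochberg, with calls under 0.05. Fold changes on this scale understate those of low genes. FPKM give no counts, so no depth or counting interval is given. The code was tested on simulated data. Values in every library are given for the 12 members with the smallest averaged p, since none was called, and for Srebf1, Srebf2, Insig1, Insig2, Scd1 and Scd2. Genes outside the list are given by library where called. Alternatives were another pseudocount, filters, quantile and upper quartile scaling, robust eBayes, the replicate number as a block, only the groups compared, and each library left out. A further 2, which leave out libraries with unusual values, were chosen after seeing the data, as was the spelling of the sterol core. The members and lists were chosen with earlier results of these data known. Promoter sequences are from RefSeq. Some genes of the pathway are not reported here.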

Additional observations from a re-analysis of the deposited data

How the results depend on the processing

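The count of members called, 0 of 30 in each contrast and direction, was 0 under every alternative that was run. Under quantile normalization the averaged log2 fold change changed sign for Sqle (-0.043), Lss (-0.062), Cyp51 (-0.038), Tm7sf2 (-0.049), Sc5d (-0.0042), Insig1 (-0.0013), Acly (-0.055) and Scd1 (-0.053). Without the 2 libraries with most FPKM at unnamed loci it did so for Tm7sf2 (-0.0064), Sc5d (-0.018) and Insig2 (0.16), and without the male libraries with Xist above 1 FPKM for Tm7sf2 (-0.00405), Insig2 (0.011) and Elovl6 (-0.0015). Leaving out 1 library at a time, the averaged value crossed 0 for Sqle (-0.0095 to 0.059), Lss (-0.077 to 0.088), Tm7sf2 (-0.029 to 0.047), Srebf1 (-0.014 to 0.20), Insig2 (-0.14 to 0.074), Acly (-0.028 to 0.059), Elovl6 (-0.032 to 0.052), Scd1 (-0.058 to 0.055) and Scd2 (-0.10 to 0.017), and the male value for Mvk (-0.11 to 0.019). None of these was called, and the cause was not tested.

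Outside the list, Acsl3 was not called after quantile normalization (limma adjusted p = 0.0809) or without the libraries with unusual values (0.171 and 0.185). Lpin1 was not called without the filter (0.0599) or without those libraries (0.0708 and 0.0796).

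A fit that took the replicate number as a block called 804 loci in the averaged effect, against 229 without it, 187 against 72 in females and 148 against 47 in males. Members called stayed at 0, and the smallest adjusted p of a member in the averaged effect was 0.0530, that of Msmo1. Thrsp and Lpin1 were then called in each sex (adjusted p between 0.0218 and 0.0464). Same-numbered libraries correlated at 0.0819 to 0.167 in their deviations from the group means, over 0.1 in 4 of 6 pairs, and 6 of 6 dexamethasone libraries correlated best with their own number. This is a hint from the data, since the labels do not say that a number marks a shared culture. With 3 libraries a group, the intervals given set the precision, and the table holds no counts from which depth could be read.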
